A study of Mus musculus with 12 samples.

Results

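The genes described here encode enzymes that add or remove histone marks and engines that move nucleosomes, measured in the frontal cortex of mice lacking Upf3b. They were chosen by symbol alone: numbered Kdm, Setd, Chd, Arid and Hdac symbols, symbols beginning with Kmt2, Kmt5 or Smarc, and Ezh1, Ezh2 and Atrx. This gave 78 of the 14909 genes in the table, and all 78 were among the 14274 that had enough counts to be tested. No symbol in the table began with Kmt5, and Kmt5a is listed there as Setd8. Genes of these families under other symbols are left out. Bulk RNA sequencing compared 2 groups of C57BL/6 mice housed pathogen-free: 7 wild type (WT) and 5 with the genotype UPF3B KO (KO), 1 library per mouse. Upf3b encodes a factor of nonsense-mediated mRNA decay (NMD), which degrades transcripts with premature stop codons. The sources used here do not give the age of the mice, how the allele was made or whether the controls were littermates. Counts of Kdm5d, a Y-linked member, ran from 158 to 375 and no library lacked them.

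Histone methyltransferases write methyl groups on lysines, demethylases of the Kdm family erase them, and histone deacetylases remove acetyl groups and are generally linked to repression. Remodellers of the Chd and Smarc families use ATP to slide or evict nucleosomes, while Arid proteins bind DNA and serve as subunits of such complexes or as partners of repressors. Many of these genes are needed in developing and mature neurons, and mutations of several, KDM5C, ATRX, CHD8 and KMT2D among them, cause intellectual disability or autism in people.

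The sequences just upstream of 5 of the members called below are shown as examples. Kmt2c, Kmt2d, Chd6 and Kdm5d were called higher in KO and Hdac2 was called lower. Each run is the last 200 bases before the annotated start of the gene, written 5′ to 3′ on the gene's own strand, from RefSeq (build GRCm38.p6), and none overlaps an annotated exon. Capitals mark exact matches, on either strand, to the GC box (GGGCGG), the CCAAT box (CCAAT) or the TATA box (TATAAA).
Kmt2c, chr5:25498784-25498983, minus strand: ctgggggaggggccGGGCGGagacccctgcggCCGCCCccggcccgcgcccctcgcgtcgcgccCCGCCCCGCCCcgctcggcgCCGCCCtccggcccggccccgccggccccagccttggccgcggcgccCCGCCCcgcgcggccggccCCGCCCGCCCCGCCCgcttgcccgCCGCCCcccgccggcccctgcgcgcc
Kmt2d, chr15:98871206-98871405, minus strand: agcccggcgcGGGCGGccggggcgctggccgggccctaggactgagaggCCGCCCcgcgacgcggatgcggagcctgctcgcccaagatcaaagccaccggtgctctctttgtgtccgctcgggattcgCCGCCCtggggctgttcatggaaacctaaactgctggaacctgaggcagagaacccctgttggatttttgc
Chd6, chr2:161109087-161109286, minus strand: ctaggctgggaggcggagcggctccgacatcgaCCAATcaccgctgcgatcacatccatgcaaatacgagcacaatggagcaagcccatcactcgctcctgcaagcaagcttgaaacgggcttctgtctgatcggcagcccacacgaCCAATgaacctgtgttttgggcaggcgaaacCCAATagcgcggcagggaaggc
Kdm5d, chrY:897588-897787, plus strand: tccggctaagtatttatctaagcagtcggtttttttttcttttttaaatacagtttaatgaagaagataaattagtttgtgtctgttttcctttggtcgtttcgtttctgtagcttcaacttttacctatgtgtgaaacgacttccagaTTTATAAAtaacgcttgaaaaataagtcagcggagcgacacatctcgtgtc
Hdac2, chr10:36974344-36974543, plus strand: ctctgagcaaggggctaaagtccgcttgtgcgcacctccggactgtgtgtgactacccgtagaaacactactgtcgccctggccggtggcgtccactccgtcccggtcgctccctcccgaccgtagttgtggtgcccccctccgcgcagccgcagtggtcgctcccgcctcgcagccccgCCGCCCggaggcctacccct
By these letters the windows of Kmt2c and Kmt2d hold GC boxes only, and those of Chd6 and Kdm5d hold none. The window of Kmt2c holds 39 CpG dinucleotides and 10 GC box matches, and that of Kmt2d holds 19 CpG and 3 GC box matches. That of Chd6 holds 14 CpG and 3 CCAAT boxes, and that of Kdm5d holds 9 CpG and a TATA-like stretch matched on both strands. Upstream windows were matched for 58 of the 78 members. These members have 77 windows between them, and a member was counted for a motif if any of its windows held it. Only 36 of the 77 windows are free of annotated exons, so the shares below also draw on windows with exonic bases. A GC box was present in 63.8% of these members, against 60.9% of the 11141 tested genes with a window. Counted by window rather than by gene, a different unit, it was in 31.0% of all 32851 windows of this length. A CCAAT box was present in 41.4%, against 36.0% and 29.3%, and a TATA box in 6.90%, against 5.95% and 9.96%. Of the 16 higher members with a window 56.2% held a GC box and 43.8% a CCAAT box, against 66.7% and 40.5% of the 42 others. The ETS motif (CCGGAAG) was found for 13.8% of members with a window and 13.3% of tested genes, and the E-box (CACGTG) for 3.45% and 8.66%. A match is only a run of letters and says nothing of a factor being bound.

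Library totals ran from 4684039 to 5425774 counts in WT and from 4990643 to 6617759 in KO. The total of KO 1 lay inside the WT range and those of the other 4 KO libraries lay above it. Upf3b fell from 38.3 ± 2.48 CPM (the count per library scaled to its size; SD, n = 7) to 2.76 ± 0.877 (n = 5), a log2 fold change of -3.78 ± 0.13 (SE). Fold changes compare KO with WT as log2 ratios, from edgeR's quasi-likelihood test, with p-values adjusted over all tested genes (Benjamini-Hochberg) and called at 0.05. Over all genes the fold change moved with how densely a gene was counted: its median was 0.25 in the tenth of genes with fewest counts per exonic base and -0.18 in the tenth with most. It also moved with exonic length (Spearman 0.290 over 14116 genes, a description across genes that are not independent). Counts of called genes are therefore also given below with offsets that remove the density trend from each library, and, where named, with offsets for density and length together.

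Of the 78 members 24 rose and 4 fell, which is 30.8% and 5.13%, while 50 passed in neither direction. Of all tested genes 15.3% were called higher and 14.4% lower. The median log2 fold change was 0.11 over members and 0.034 over all tested genes, and 63 of the 78 members were above 0. With density offsets 20 members were higher and 2 lower, against 8.48% and 7.96% of all genes, and 15 of the higher and both lower ones were shared with the first fit. With density and length offsets 19 were higher and 1 lower, against 8.14% and 8.09%, and the median was 0.049. In 10 members (12.8%) every KO library lay above every WT library, against 5.84% of all genes. In 1 member, Hdac2, every KO library lay below, against 4.8% of all genes. The count of higher members ran from 20 to 33 when single libraries were left out and was 33 without WT 4, the deepest WT library. The count of lower members was 1 without KO 3, KO 4, WT 6 or WT 7 and 6 without WT 4. With the library total as a covariate no member was called, and of the 14274 tested genes only 84 were higher (0.588%) and 11 lower (0.0771%). With it 17 of 78 members had an unadjusted p under 0.05, against 43 in the first fit. Over all tested genes these counts were 1866 and 5918. Depth and genotype could be told apart only in part, since 4 of 5 KO libraries were deeper than every WT library. In KO 1, whose total was not, 25 of 78 members (32.1%) lay above every WT library and 8 below, against 16.2% and 15.0% of all tested genes. In bulk tissue, fewer cells of a type and less RNA per cell cannot be told apart.

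**Figure D1:**
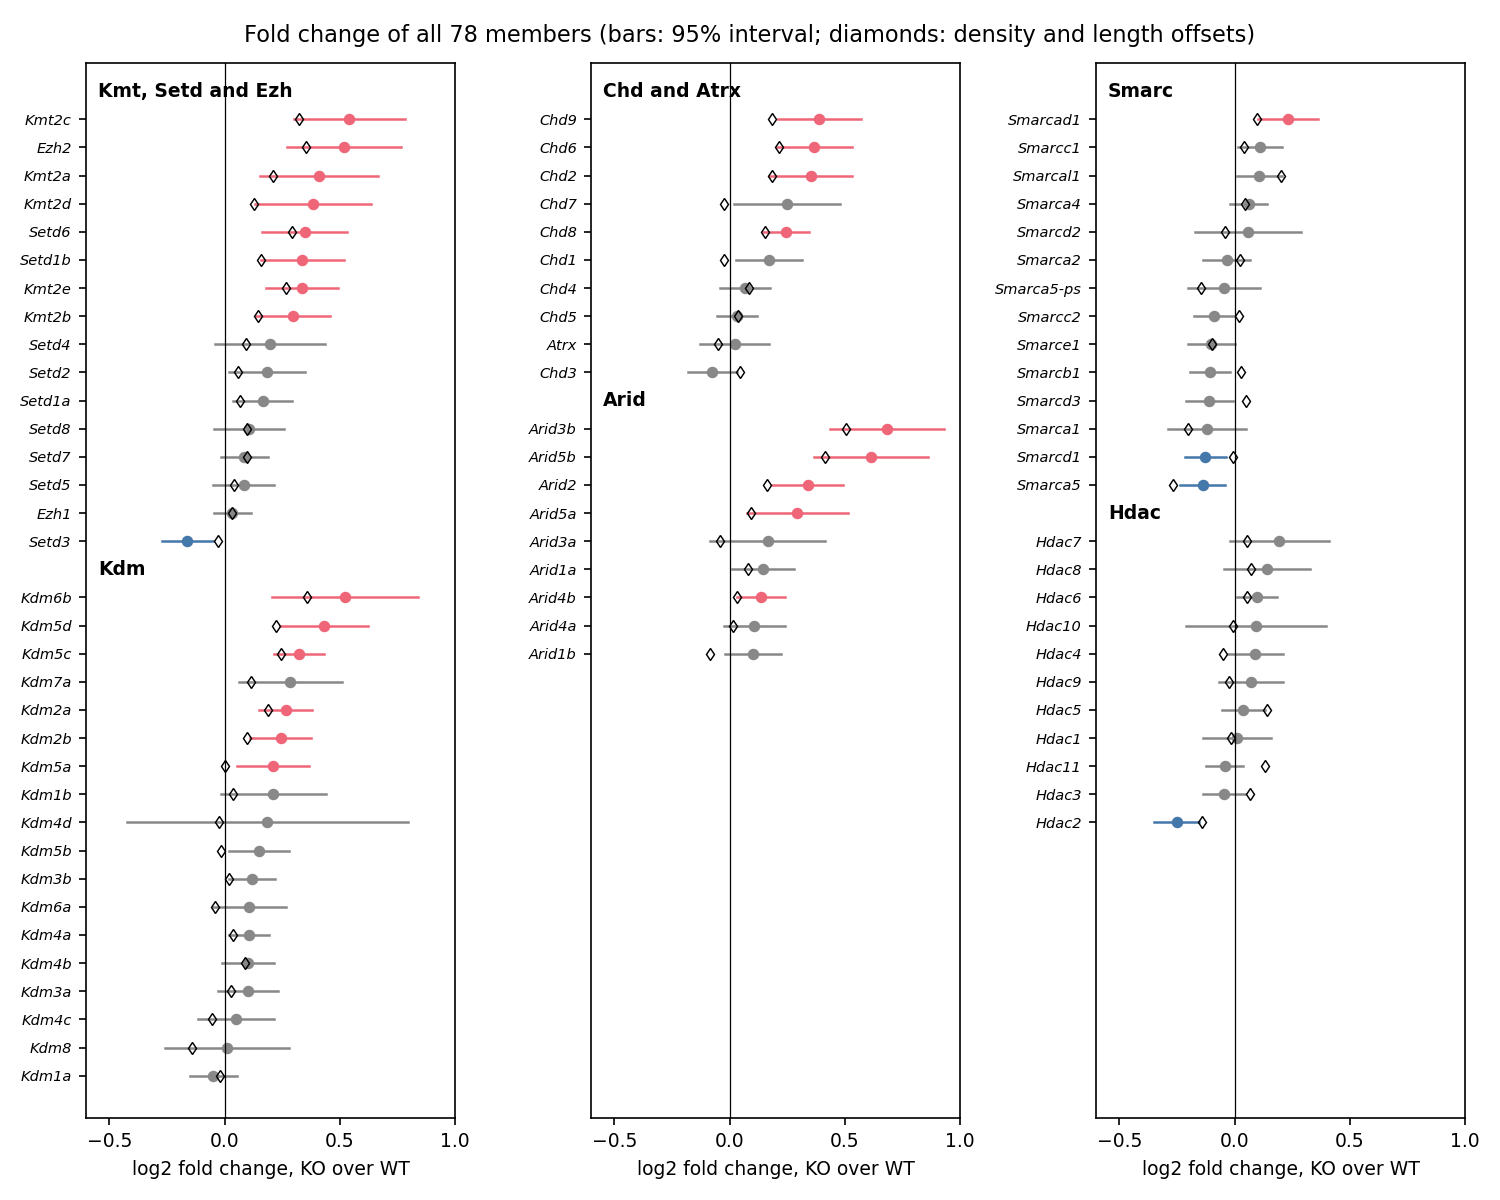
Log2 fold change (KO over WT) of all 78 members by family, with 95% intervals as bars. Red points were called higher (24), blue points lower (4) and grey points neither (50), and open diamonds give the value with density and length offsets; most Kmt2, Kdm5 and Arid points lie right of 0 and most Smarc and Hdac points near it.

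Of the 16 methyltransferase genes 8 rose and 1 fell (6 and none with density offsets). They include the Kmt2 family, most of whose proteins methylate histone H3 at active promoters and enhancers, and all 5 Kmt2 genes rose, with a median log2 fold change of 0.38. Kmt2c, which encodes an enhancer methyltransferase, was at 100.4, 143 and 170.4 CPM (lowest, median and highest) in the 7 WT libraries and at 192, 233, 179.5, 209.9 and 193 in KO 1, 2, 3, 4 and 6. Every KO library lay above every WT library. The log2 fold change was 0.54 ± 0.11 (SE, adjusted p = 0.00295), or 1.45-fold, and 0.44 with density offsets (adjusted p = 0.0127). Kmt2e, whose product binds methylated histone H3 rather than methylating it, was at 117, 147 and 164 CPM in WT and at 186, 182, 169, 192 and 179.8 in the KO libraries. Its groups did not overlap either, and its log2 fold change was 0.33 ± 0.073 (adjusted p = 0.00394).

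The remaining Kmt2 genes overlapped between groups. Kmt2b was at 91.2, 101 and 126 CPM in WT and at 121, 146, 123, 124 and 127 in KO, with a log2 fold change of 0.30 ± 0.075 (adjusted p = 0.00874). Kmt2a, the mixed-lineage leukaemia gene, was at 158, 227 and 261 CPM in WT and at 294, 343, 252, 274 and 277 in KO (0.41 ± 0.12, adjusted p = 0.0196). Kmt2d, the other enhancer methyltransferase of the family, was at 121, 172 and 210.2 CPM in WT and at 213, 249, 202, 208 and 223 in KO (0.38 ± 0.12, adjusted p = 0.0244). KO 2 was the highest library for each of these genes, and without it Kmt2a and Kmt2d missed the threshold (adjusted p = 0.0523 and 0.0583). With density offsets 3 of the 5 Kmt2 genes passed, Kmt2b, Kmt2c and Kmt2e, and Kmt2a and Kmt2d were at 0.34 and 0.28 (adjusted p = 0.0642 and 0.108). With density and length offsets the 3 that passed were Kmt2a, Kmt2c and Kmt2e, at 0.21, 0.32 and 0.27 (adjusted p = 0.0334, 0.00108 and 0.00259). Kmt2b and Kmt2d were then at 0.15 and 0.13 (adjusted p = 0.0822 and 0.130), and the median of the 5 was 0.21. The median exonic length of these 5 genes was 14967 nt. Kmt2a, Kmt2c and Kmt2e each share exonic bases with a gene on the opposite strand (Gm42585 for Kmt2c and Srpk2 for Kmt2e). No source used here gives the strand setting of the counting. Exonic bases are shared with an opposite-strand gene in 26 of the 78 members and in 13 of the 28 that were called, so reads of the partner may be among their counts.

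Of the 9 Setd genes 2 rose and 1 fell (2 and none with density offsets, Setd6 and Setd7). Setd6, which methylates non-histone proteins such as a subunit of NF-kappaB, was at 15.1, 17.1 and 19.4 CPM in WT and at 21.1, 25.05, 22.03, 18.8 and 22.2 in KO, so only KO 4 lay inside the WT range (log2 fold change 0.35 ± 0.086, adjusted p = 0.00771). Setd1b, a catalytic subunit of a promoter methyltransferase complex, was at 77.4 ± 11.5 CPM in WT and 97.7 ± 3.75 in KO (0.34 ± 0.085, adjusted p = 0.00843). Setd1b missed the threshold with density offsets, at 0.23 (adjusted p = 0.0582), and with density and length offsets, at 0.16 (adjusted p = 0.0524). Its close relative Setd1a was just outside the threshold at 0.17 ± 0.061 (adjusted p = 0.0501). Setd3, an actin histidine methyltransferase, fell from 162 ± 3.49 to 145 ± 14.7 CPM (-0.16 ± 0.052, adjusted p = 0.0300), with KO 1 at 168 above all WT libraries and the other 4 KO libraries below them. With density offsets Setd3 was at -0.020 (adjusted p = 0.744). It also missed the threshold without any 1 of KO 2, KO 3, KO 4, WT 5, WT 6 and WT 7 (adjusted p up to 0.0891).

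The 2 Ezh genes, catalytic subunits of Polycomb repressive complex, were at very different levels. Ezh2, the form of dividing cells, was at 6.21, 7.53 and 8.20 CPM in WT and at 9.61, 13.1, 10.5, 9.69 and 9.88 in KO. The groups did not overlap, and Ezh2 rose by a log2 fold change of 0.52 ± 0.12 (adjusted p = 0.00444; 0.34 with density offsets, adjusted p = 0.0426). These are 29 to 39 counts per WT library and 47 to 84 per KO library. Ezh1, the form of non-dividing cells, was at 109 ± 3.62 CPM in WT and 112 ± 4.49 in KO (0.033 ± 0.038, adjusted p = 0.534). Per kilobase of exon, the WT level was 26.1 ± 0.863 CPM for Ezh1 and 2.63 ± 0.239 for Ezh2. Markers of proliferating cells were mixed: 3 of 4 tested were called higher and 1 lower. Their summed level overlapped between groups, from 74.1 to 82.7 CPM in WT and from 76.9 to 84.1 in KO. With density offsets none of these markers was called higher and 1 was called lower. Their part in the Ezh2 value was not tested.

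**Figure D2:**
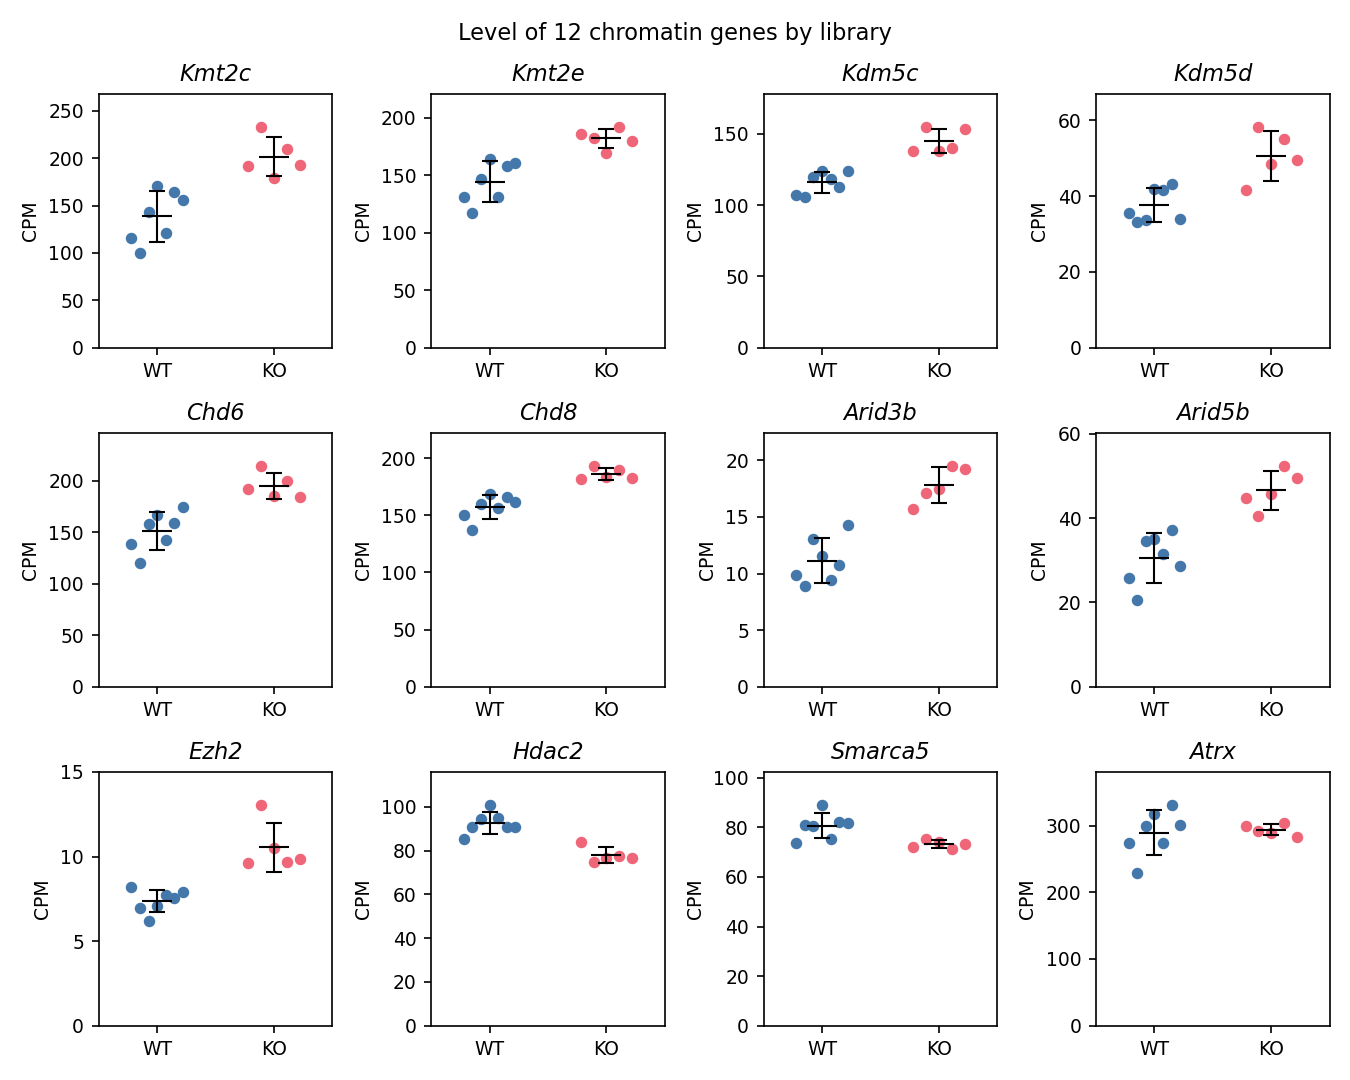
Level in CPM (vertical axis from 0) of 12 members in each WT (blue, n = 7) and KO (red, n = 5) library, with the mean and SD in black. The KO points lie above all WT points for Kmt2c, Kmt2e, Kdm5c, Chd6, Chd8, Arid3b, Arid5b and Ezh2, below all of them for Hdac2, and inside the WT range for Atrx.

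Among 18 demethylase genes 6 rose and none fell (3 and none with density offsets). The member with the smallest p of all 78 was Kdm5c, an X-linked demethylase of histone H3 that acts at promoters and enhancers of neuronal genes. It was at 106, 118 and 124 CPM in WT and at 138, 155, 138, 140.5 and 154 in KO 1, 2, 3, 4 and 6. Every KO library lay above every WT library. The log2 fold change was 0.32 ± 0.051 (95% interval 0.21 to 0.43, adjusted p = 6.63e-04), or 1.25-fold, and was 0.30 with density offsets (adjusted p = 0.00159) and 0.25 with density and length offsets (adjusted p = 0.00101). Kdm5c spans chrX:152233020-152274535 on the plus strand of GRCm38 and shares no exonic base with another annotated gene.

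Kdm5d is the Y-linked counterpart of Kdm5c. It was at 33.2, 35.5 and 43.2 CPM in WT and at 41.5, 58.3, 48.5, 55.1 and 49.6 in KO, where only KO 1 lay inside the WT range. It rose by a log2 fold change of 0.43 ± 0.090 (adjusted p = 0.00292). Per kilobase of exon, the level of Kdm5c was 3.85 ± 0.461 times that of Kdm5d in WT (SD, n = 7) and 3.58 ± 0.395 times in KO (n = 5). The 2 genes are alike in sequence, and reads that fit both may have been counted for either. The autosomal Kdm5a rose by 0.21 ± 0.074 (adjusted p = 0.0416) but was at 0.10 with density offsets (adjusted p = 0.304) and 0.0031 with density and length offsets. Its call was lost without any 1 of KO 2, KO 3, KO 4, WT 1, WT 2, WT 5, WT 6 and WT 7 (adjusted p up to 0.102). Kdm5b was at 0.15 ± 0.061 (adjusted p = 0.0761).

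Both Kdm2 genes rose. Their products remove methyl groups from histone H3 and bind unmethylated CpG islands. Kdm2a was at 125, 145 and 157 CPM in WT and at 165, 177, 162, 174 and 169.9 in KO, without overlap (log2 fold change 0.27 ± 0.054, adjusted p = 0.00257). Kdm2b was at 38.0, 41.4 and 47.9 CPM in WT and at 44.2, 49.9, 48.5, 50.8 and 55.5 in KO, with KO 1 inside the WT range (0.24 ± 0.063, adjusted p = 0.00948). With density offsets Kdm2a stayed called at 0.25 (adjusted p = 0.00689) and Kdm2b was at 0.12 (adjusted p = 0.151). Kdm6b, an eraser of the Polycomb mark that is induced by activity and inflammation, was at 32.5, 40.4 and 66.8 CPM in WT and at 54.6, 79.7, 59.7, 55.8 and 66.0 in KO. Only KO 2 exceeded the highest WT library (0.52 ± 0.15, adjusted p = 0.0163; 0.40 with density offsets, adjusted p = 0.0601). Its X-linked relative Kdm6a was at 0.11 ± 0.074 (adjusted p = 0.288). None of the 4 Kdm4 genes passed, with log2 fold changes from 0.051 to 0.19, and Kdm7a and Kdm4a lay just outside the threshold (adjusted p = 0.0526 and 0.0567).

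Among the 10 genes of the Chd family and Atrx, 4 rose and none fell (5 and none with density offsets). Of the 4 genes Chd6 to Chd9, 3 rose, and none of the 3 genes Chd3 to Chd5, which encode NuRD remodellers, passed. Chd8, a remodeller that binds many promoters of neurodevelopmental genes, was at 137, 160.1 and 169 CPM in WT and at 182, 194, 183, 189.9 and 183 in KO, without overlap. It rose by a log2 fold change of 0.24 ± 0.047 (adjusted p = 0.00195; 0.22 with density offsets, adjusted p = 0.00536). Chd6 was at 119.7, 158 and 174 CPM in WT and at 192, 215, 185, 200.006 and 184 in KO, again without overlap (0.37 ± 0.076, adjusted p = 0.00281). Chd9 was at 91.7, 115 and 132 CPM in WT and at 141, 159, 132, 142 and 170.3 in KO, where only KO 3 lay inside the WT range (0.39 ± 0.084, adjusted p = 0.00355). Chd7 was at 0.25 ± 0.11 (adjusted p = 0.0931).

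Chd2, which acts with transcribing polymerase, was at 78.6, 97.2 and 118 CPM in WT and at 118, 136, 106, 126 and 126 in KO (log2 fold change 0.35 ± 0.085, adjusted p = 0.00678), with KO 3 inside the WT range. The difference of Chd3 was -0.075 ± 0.050 (adjusted p = 0.274) and turned to 0.13 with density offsets (adjusted p = 0.0612). Chd5, a neuronal NuRD remodeller, was at 0.033 ± 0.041 (adjusted p = 0.572) and was called with density offsets at 0.14 (adjusted p = 0.00778) but not with density and length offsets, at 0.035 (adjusted p = 0.631). Atrx, the X-linked remodeller that deposits histone variants in heterochromatin, was at 228, 299 and 331 CPM in WT and at 300.1, 292, 289.6, 304 and 283 in KO. The KO libraries lay inside the WT range, and the log2 fold change was 0.022 ± 0.071 (95% interval -0.13 to 0.17, adjusted p = 0.843). Its sign turned in other fits, to -0.029 without WT 2 and to -0.14 with exonic-length offsets (adjusted p = 0.0161), a setting chosen after seeing the data.

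Among the 9 Arid genes 5 rose and none fell (3 and none with density offsets), and the largest fold changes of all members were here. Arid3b, a DNA-binding protein of embryonic and neural crest development, was at 8.87, 10.8 and 14.3 CPM in WT and at 15.7, 17.1, 17.5, 19.5 and 19.3 in KO. The groups did not overlap, and it rose by a log2 fold change of 0.68 ± 0.12 (adjusted p = 0.00107), or 1.60-fold. Arid5b, a partner of the demethylase Phf2, was at 20.6, 31.5 and 37.2 CPM in WT and at 44.8, 40.4, 45.7, 52.5 and 49.6 in KO (0.61 ± 0.12, adjusted p = 0.00182), also without overlap. With density offsets these were at 0.51 and 0.47 (adjusted p = 0.00715 and 0.0141).

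Arid2, the DNA-binding subunit of the PBAF remodelling complex, was at 63.1, 68.9 and 86.6 CPM in WT and at 91.4, 102, 88.1, 93.7 and 88.9 in KO, without overlap (log2 fold change 0.34 ± 0.072, adjusted p = 0.00333). Arid1a and Arid1b, the alternative DNA-binding subunits of the BAF complex, were at 0.15 ± 0.064 and 0.10 ± 0.056 (adjusted p = 0.0977 and 0.187). Arid5a, an RNA-binding stabiliser of inflammatory mRNAs, and Arid4b, a subunit of a Sin3 corepressor complex, rose by 0.30 ± 0.10 and 0.14 ± 0.048 (adjusted p = 0.0419 and 0.0433). Both missed the threshold with density offsets (adjusted p = 0.360 and 0.291) and in 7 and 9 of the fits without 1 library: Arid5a without KO 2, KO 3, KO 6, WT 1, WT 2, WT 3 or WT 5, and Arid4b without any library but KO 6, WT 4 and WT 6.

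Smarc genes, which encode the ATPases and core subunits of SWI/SNF and related complexes, had 1 of 14 higher and 2 lower (1 and 1 with density offsets). Smarca5, an ISWI ATPase, was at 73.6, 81.2 and 89.2 CPM in WT and at 72.0, 75.1, 74.2, 71.4 and 73.4 in KO. It fell by 0.14 on the log2 scale (SE 0.047, adjusted p = 0.0354), and 3 of the 5 KO libraries lay below the lowest WT library. The difference was larger with density offsets, at -0.23 (adjusted p = 0.00185), and with density and length offsets, at -0.27 (adjusted p = 3.62e-04). Without offsets the call was lost without any 1 of KO 1, KO 3, KO 4, KO 6, WT 2, WT 3, WT 6 and WT 7 (adjusted p up to 0.0866). The pseudogene copy Smarca5-ps, which matched the symbol rule, was at -0.045 ± 0.074 (adjusted p = 0.676), and reads of one copy may have been counted for the other.

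Smarcad1, a remodeller that acts in DNA end resection and in heterochromatin, was at 41.1, 43.9 and 52.2 CPM in WT and at 52.4, 59.0, 51.3, 50.2 and 51.0 in KO. WT 4 lay inside the KO range, and the log2 fold change was 0.23 ± 0.061 (adjusted p = 0.0111; 0.12 with density offsets, adjusted p = 0.151). Smarcd1, a BAF subunit, was at 174, 179 and 193 CPM in WT and at 176, 168, 156, 159.5 and 172 in KO (-0.13 ± 0.042, adjusted p = 0.0329). With density offsets its difference was 0.0077 (adjusted p = 0.923), of the other sign, and without offsets the call was lost without KO 3, KO 4, WT 6 or WT 7 (adjusted p up to 0.0957). The ATPase genes of BAF itself did not pass: Smarca4 (Brg1) was at 0.061 ± 0.038 (adjusted p = 0.246) and Smarca2 (Brm) at -0.035 ± 0.048 (adjusted p = 0.616). Smarcal1, a fork-remodelling helicase, passed only with offsets: 0.11 ± 0.046 without (adjusted p = 0.0867) and 0.21 with density offsets (adjusted p = 0.0183).

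Of the 11 Hdac genes, none rose and Hdac2 fell (2 higher and 1 lower with density offsets). Hdac2, a class I deacetylase of neurons, was at 85.1, 90.8 and 101 CPM in WT and at 84.1, 74.7, 76.6, 77.4 and 76.6 in KO 1, 2, 3, 4 and 6. KO 1 lay 1 CPM below the lowest WT library and the other KO libraries further below. The log2 fold change was -0.25 ± 0.046 (95% interval -0.35 to -0.15, adjusted p = 0.00151), or 0.841-fold, with -0.15 under density offsets (adjusted p = 0.0310) and -0.14 under density and length offsets (adjusted p = 0.0763). The closely related Hdac1 was at 33.8 ± 2.88 CPM in WT and 34.0 ± 2.70 in KO (0.011 ± 0.070, adjusted p = 0.922). Hdac6, a cytoplasmic deacetylase, was at 0.10 ± 0.041 (adjusted p = 0.0883) and Hdac7 at 0.19 ± 0.10 (adjusted p = 0.157). Hdac5 and Hdac11 were at 0.038 ± 0.044 and -0.043 ± 0.037 without offsets (adjusted p = 0.546 and 0.412). Both were called higher with density offsets, at 0.17 and 0.14 (adjusted p = 0.00340 and 0.00656), and with density and length offsets. The fold of Hdac11 thus changed sign between the fits.

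**Figure D3:**
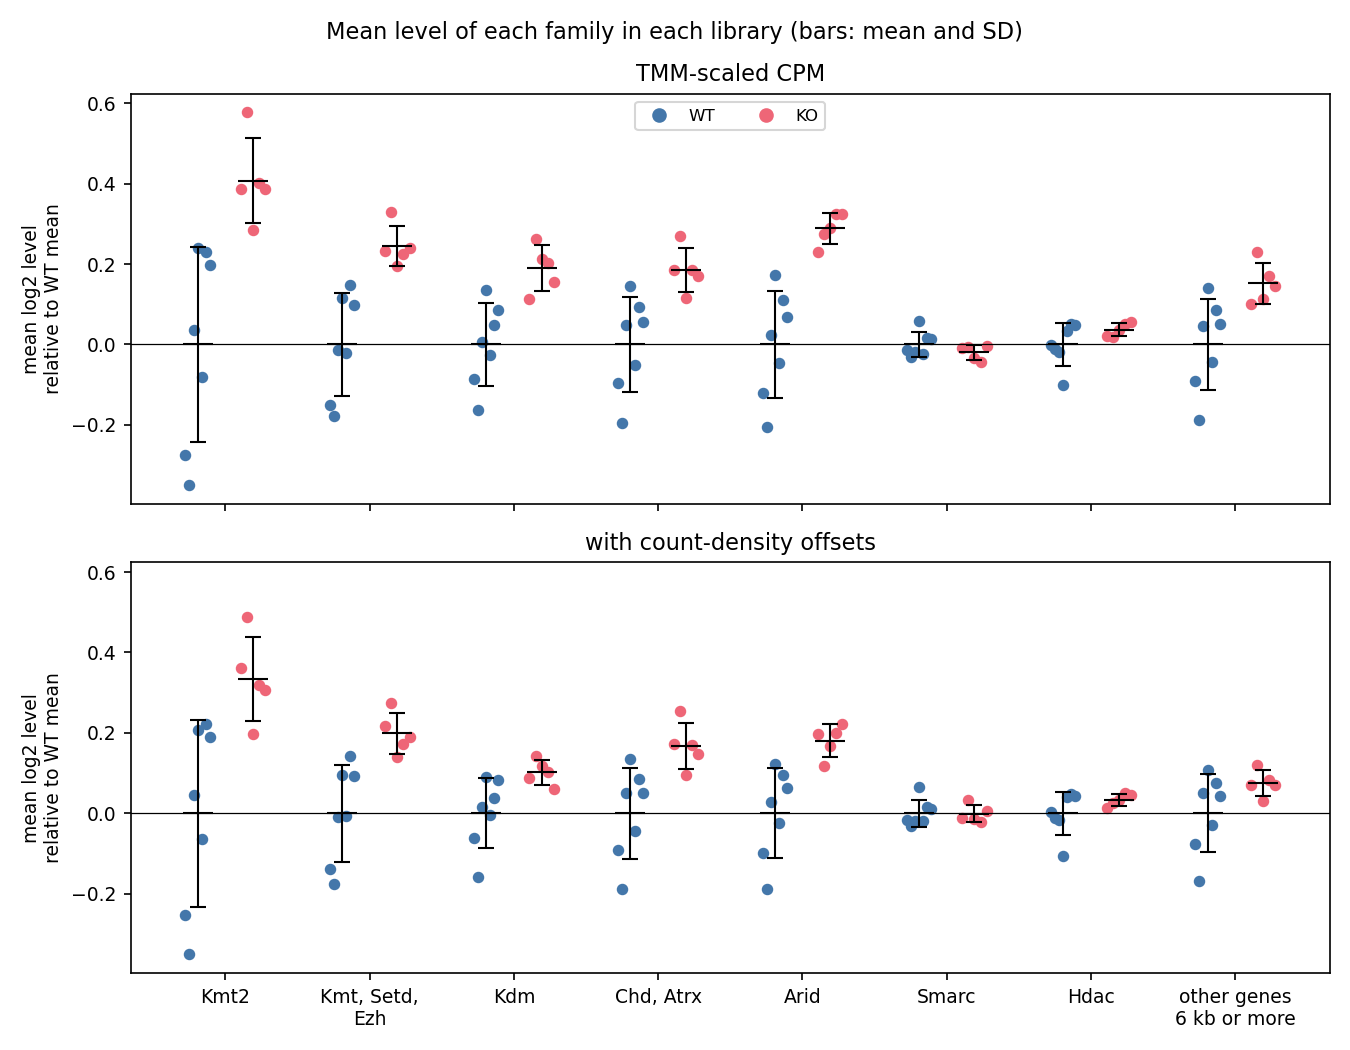
Mean log2 level of each family in each library relative to the WT mean, for WT (blue, n = 7) and KO (red, n = 5), with the mean and SD in black; the upper panel uses CPM and the lower panel density-adjusted values. The Kmt2, Kmt, Setd and Ezh, and Arid points separate in the upper panel. The Kdm, Chd and Atrx, Smarc and Hdac points do not, and the other genes of 6 kb or more overlap. In the lower panel the WT and KO points of Kmt2, of Kmt, Setd and Ezh, and of Arid overlap as well, with the highest WT and lowest KO values at 0.22 and 0.20 for Kmt2.

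The libraries ordered themselves alike across several families. The mean log2 level of the 78 members, relative to the WT mean, ran from -0.13 (WT 2) to 0.090 (WT 4) in WT and from 0.13 (KO 1) to 0.20 (KO 2) in KO. The KO libraries all lay above the WT libraries, also with density offsets (WT up to 0.069, KO from 0.089). The spread within WT was largest for Kmt2, from -0.35 (WT 2) to 0.24 (WT 4), with KO from 0.29 to 0.58. Kdm (highest WT library 0.136, lowest KO library 0.114) and Chd and Atrx (0.145 and 0.114) overlapped even without offsets. Kmt2, Kmt, Setd and Ezh together, and Arid separated without offsets but not with density offsets. The highest WT and lowest KO libraries were then at 0.22 and 0.20 for Kmt2, at 0.143 and 0.140 for Kmt, Setd and Ezh together, and at 0.123 and 0.117 for Arid. The 1960 other tested genes with at least 6 kb of exonic sequence also had WT 2 lowest (-0.19) and WT 4 highest (0.14) among WT and KO 2 highest among KO (0.23), with KO from 0.10, so their groups overlapped. Smarc (-0.045 to 0.058) and Hdac (-0.10 to 0.057) stayed within narrow ranges over all 12 libraries.

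Exonic length and fold change moved together among the members. Members had a median exonic length of 5837 nt, against 3170 nt for all tested genes. Of the 36 members with 6 kb or more, 18 were called higher and 1 lower (median log2 fold change 0.23), against 29.4% higher and 4.44% lower of the 1960 other genes of that length (median 0.13). Of the 26 members between 3 and 6 kb, 4 were higher (15.4%) and 1 lower, against 18.0% and 10.6% of other genes of that length. Of the 16 below 3 kb, 2 were higher and 2 lower (12.5% each), against 8.76% and 20.6%. With density offsets the members called were 14 higher and 1 lower at 6 kb or more, 3 and none between 3 and 6 kb, and 3 and 1 below 3 kb. The shares of other genes were then 14.6% and 5.15%, 10.2% and 6.77%, and 4.99% and 9.88%. The Spearman correlation between length and fold change over the 78 members was 0.501, and 0.250 with density and length offsets, a setting chosen after seeing the data. With those offsets 13 of the 36 long members were higher and 1 lower (median 0.089), against 9.64% and 11.2% of the other long genes (median 0.0042). These correlations are across genes of the same libraries and are given as descriptions.

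**Figure D4:**
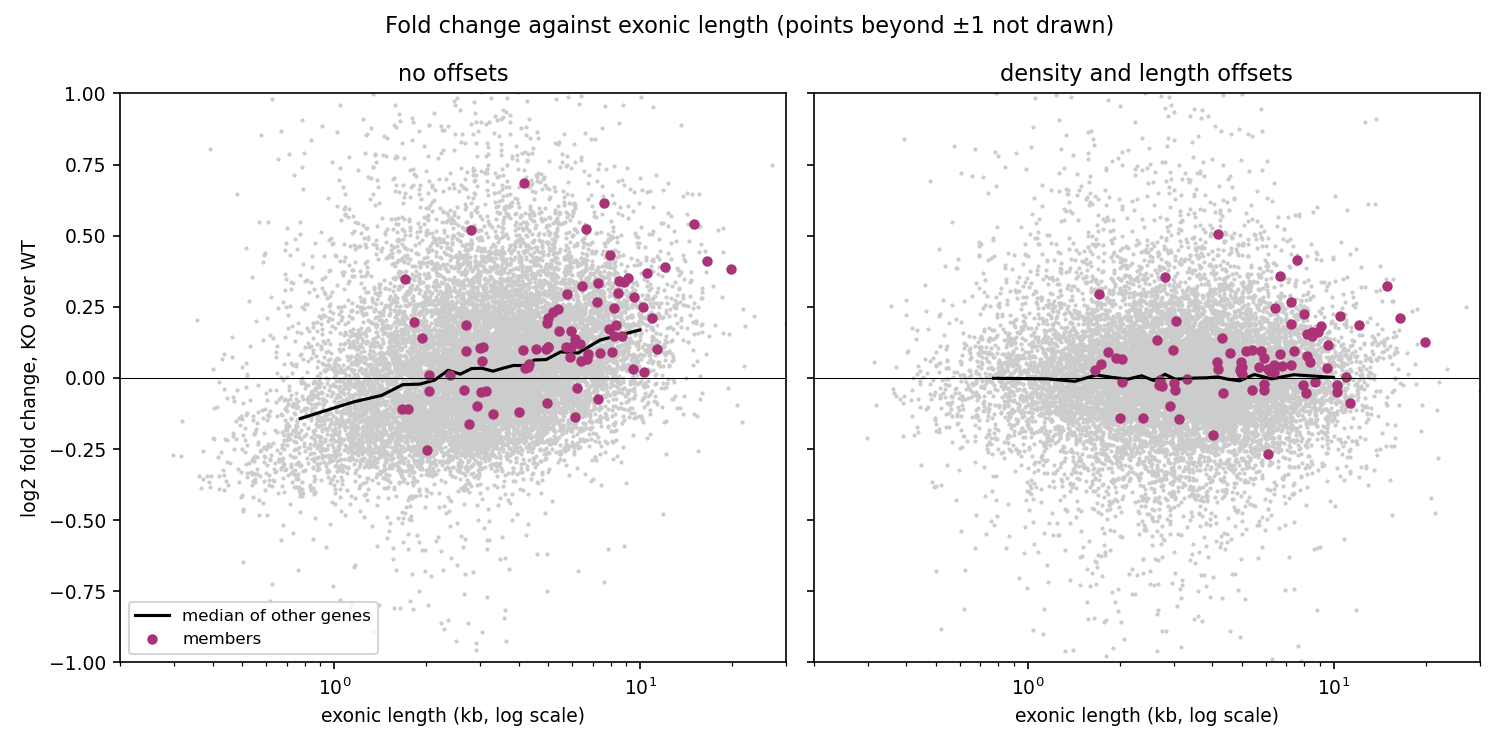
Log2 fold change (KO over WT) against exonic length in kb (log axis) for the 78 members (purple) and other tested genes (grey), without offsets (left) and with density and length offsets (right); the black line is the median of the other genes in 20 length groups. The line rises with length on the left and stays near 0 on the right, where the members' median is 0.049.

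Annotation of NMD-prone transcripts was uneven among the members. In 33 of them at least 1 annotated transcript carries a stop codon over 50 nt upstream of its last exon junction, and 16 of these were called higher and 1 lower. Of the other 45 members 8 were higher and 3 lower. Over all genes 21.2% of those with such a transcript were higher and 12.5% lower, and 13.1% and 15.0% of those without. With density offsets 11 of the 33 were higher and none lower, and 9 of the 45 higher and 2 lower. Over all genes 12.7% were then higher and 6.06% lower with such a transcript, and 6.90% and 8.69% without. With density and length offsets 12 of the 33 and 7 of the 45 were higher, against 12.3% and 6.56% over all genes. Members were also longer: the median was 5901 nt for the 33 and 5717 nt for the 45. Over all genes it was 3335 nt with such a transcript and 3114 nt without. Of the 13 members that passed in every fit but that with the library total as a covariate, 8 have such a transcript (Kmt2e, Kdm2a, Ezh2, Arid3b, Chd2, Arid5b, Kdm5d and Chd9) and 5 have none (Kdm5c, Kmt2c, Chd6, Chd8 and Arid2). No count of all genes passing these fits is given here, so the split of 8 and 5 has no background to be read against. Counts were per gene, so no transcript was measured apart.

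Per kilobase of exon, the most abundant member in WT was Chd3, at 81.0 ± 4.60 CPM (SD, n = 7), followed by Hdac11 at 70.9 ± 1.59, Smarcc2 at 60.2 ± 2.73 and Setd3 at 58.6 ± 1.27. Smarcc2 and Setd3 did not differ beyond their spread. The least abundant were Kdm4d at 1.23 ± 0.463, Arid3a at 2.40 ± 0.392, Ezh2 at 2.63 ± 0.239 and Arid3b at 2.67 ± 0.479, and the last 3 did not differ beyond their spread. Kdm5c (18.0 ± 1.16), Kdm2a (19.5 ± 1.64), Chd8 (19.2 ± 1.31) and Kmt2e (19.9 ± 2.48) sat together above the members' median of 14.6.

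Other chromatin genes that the symbol rule leaves out were taken from 9 lists. Of their 177 tested genes 46 were higher (26.0%) and 14 lower (7.91%), against 15.3% and 14.4% of all tested genes. With density offsets 24 were higher (13.6%) and 10 lower (5.65%), against 8.48% and 7.96% of all genes. The list of DNA methylation genes had 10 of 12 higher and none lower (5 and none with density offsets). Tet3, which oxidises methylcytosine, rose from 109 ± 13.8 to 145 ± 10.2 CPM (log2 fold change 0.42 ± 0.077, adjusted p = 0.00157), and Dnmt1, the maintenance methyltransferase, rose by 0.22 ± 0.049 (adjusted p = 0.00443). Of 26 genes of other remodelling complexes 12 were higher and 2 lower, led by the ATPase genes Ino80 (0.32 ± 0.061) and Srcap (0.37 ± 0.076). With density offsets 5 of the 26 were higher and 1 lower.

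Among 30 Polycomb partners of Ezh1 and Ezh2, 4 were higher (13.3%) and 5 lower (16.7%), near the 15.3% and 14.4% of all tested genes. With density offsets 5 were higher (16.7%) and 4 lower (13.3%), against 8.48% and 7.96% of all genes. Phf1 was at 0.43 ± 0.041 and Asxl3 at 0.54 ± 0.096. Among 12 subunits of the COMPASS complexes that hold the Kmt2 and Setd1 enzymes, 2 were higher (16.7%) and 1 lower (8.33%). Hcfc1 was among the higher ones (0.25 ± 0.068) and Psip1 was the lower one (-0.22 ± 0.037). With density offsets 1 was higher and 1 lower (8.33% each). Among 18 accessory BAF subunits 1 was higher, Gltscr1l (0.24 ± 0.060), and none lower. With density offsets none of the 18 passed, and Gltscr1l was at 0.18 (adjusted p = 0.0514). Among 27 NuRD and corepressor genes, which hold Hdac1 to Hdac3, 4 were higher (14.8%) and 2 lower (7.41%), among them Mbd3 (-0.18 ± 0.049). With density offsets 1 was higher and 1 lower (3.70% each), and Mbd3 was at -0.015 (adjusted p = 0.825). Of 21 acetyltransferases 5 were higher, such as Ncoa3 (0.36 ± 0.069) and Kat6b (0.30 ± 0.067), and 1 lower (2 and 2 with density offsets). Of 24 other methyltransferases 7 were higher, such as Prdm2 (0.25 ± 0.047) and Whsc1l1 (0.21 ± 0.051), and 2 lower. With density offsets 4 were higher and none lower, and Whsc1l1 was at 0.12 (adjusted p = 0.106). Of 7 sirtuins 1 was higher, the mitochondrial Sirt3 (0.32 ± 0.061), and 1 lower, Sirt2 (-0.13 ± 0.042), whose value turned to 0.023 with density offsets, where 1 sirtuin was higher and 1 lower.

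Markers of cortical cell types were measured beside the members. Of all tested genes 15.3% were called higher and 14.4% lower, and 8.48% and 7.96% with density offsets. Excitatory neuron markers had none of 6 higher and 3 lower, with summed levels of 1477 to 1846 CPM in WT and 1226 to 1764 in KO, and none was called with density offsets. Inhibitory neuron, astrocyte and oligodendrocyte markers had none higher and 2, 2 and 3 of 6 lower (0, 1 and 0 with density offsets). Oligodendrocyte precursor markers had 4 of 5 higher, with sums of 364 to 425 CPM in WT and 430.1 to 488 in KO, and 3 with density offsets. Microglial markers had 2 of 6 lower (376 to 472 CPM in WT, 356 to 390 in KO) with and without these offsets. Endothelial markers had 3 of 5 higher (209 to 244 CPM in WT, 224 to 273 in KO) and none with density offsets, and none of 3 choroid plexus markers passed. No tested marker was at 0 in every library, and the part of these cell types in the members' differences was not tested.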

How the data were processed

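The authors deposited raw whole-number counts, 1 column per library and 1 row per gene; the submitters' processing notes name STAR and the mm10 build. No source used here gives the counter, its strand setting or the treatment of duplicate reads, so counts of overlapping, antisense and near-identical genes are uncertain. Of 14909 genes 14437 were matched to GENCODE M21 by symbol and 420 by RefSeq accession. Groups and mouse numbers came from the sample titles.

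From these counts, CPM were computed with TMM-scaled library sizes, and genes that passed filterByExpr were tested with edgeR 4.0.16 (R 4.3.3; glmQLFit and glmQLFTest, group as the only term, all 12 libraries, Benjamini-Hochberg adjustment at 0.05). Density and length offsets are loess trends (span 0.3) of each library against counts per exonic base and exonic length. Counts varied between mice with a biological coefficient of variation of 8.11%. The most alike libraries were WT 6 and WT 7 (chi-square per degree of freedom 1.02, p = 0.0269, against 1.18 to 7.25 for other pairs) and were kept apart, with Ttr counts of 9 and 56. The edgeR fits without and with offsets were also run on simulated counts. These counts held no density or length trend, so they cannot show how well the offsets remove one.

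The rule for named members takes those passing with and without density offsets, the 3 of smallest p in each family, and Kdm5c, Kdm5d and Atrx; it gives 22 members, with Upf3b and up to 2 passing genes per other chromatin list. 1 gene taken by this rule is not reported here. Other members named complete a family or were chosen after their values were seen. Members and lists were chosen with earlier results of these data known. Alternatives were DESeq2 1.42.0, limma-voom (limma 3.58.1), other scaling factors, no filter, the mouse number as a block, the library total as a covariate, the offsets, and each library left out. Length offsets were chosen after seeing the data.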

Additional observations from a re-analysis of the deposited data

Results flagged for a closer look

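Of 60 groups of libraries examined, 5 held 1 library apart from the rest, by a gap of more than 0.710 of the range among 5 KO libraries or 0.568 among 7 WT libraries. Chance gives about 1 such case in 20 groups. KO 2 stood apart in 3 of the 5: Ezh2 was at 13.1 CPM there and at 9.61 to 10.5 in the other KO libraries, Kmt2b at 146 CPM and at 121 to 127 in the others, and Smarcad1 at 59.0 CPM and at 50.2 to 52.4 in the others. Smarcad1 also stood apart in WT 4, at 52.2 CPM against 41.1 to 45.4 in the other WT libraries. Hdac2 in KO 1 was at 84.1 CPM, nearer to WT than the 74.7 to 77.4 of the other KO libraries. All 4 genes passed in each of the 12 fits without 1 library.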

How the results depend on the processing

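Of 28 members called, 20 passed in every fit without 1 library, and 13, all higher, passed in all 22 fits other than that with the library total as a covariate. With that covariate 84 genes were higher and 11 lower, and 0 members were higher and 0 lower. With the replicate block the genes higher in KO numbered 1129 and the genes lower in KO 1186, with 16 members higher and 1 lower. Mouse numbers did not pair the libraries: correlations of same-numbered deviations were 0.14, -0.38, -0.047, -0.076 and 0.038, and no KO library correlated best with its own number. Density offsets gave 1197 and 1124 genes and 2 lower members, density and length offsets 1149 and 1142 genes and 1 lower member, and exonic-length offsets 7 lower members and a median of 0.042. Without 1 library the count of lower members ran from 1 (KO 3, KO 4, WT 6 or WT 7 left out) to 6 (WT 4) and that of higher members from 20 to 33. Over all genes the lower count then ran from 1544 to 2467 and the higher count from 1585 to 2420, both highest without WT 4. DESeq2, limma-voom, other scaling and no filter gave 21 to 26 higher and 4 or 5 lower members. Fold changes of 15 members changed sign with density offsets, of 12 with exonic-length offsets and of 22 with both density and length offsets. Smarcd1 was the 1 of these called without offsets. Among genes taken by the naming rule, signs turned for Smarcd1 (0.0077) and Sirt2 (0.023) with density offsets, for Atrx with exonic-length offsets (-0.14), and for Atrx (-0.048), Whsc1l1 (-0.0040), Mbd3 (0.0073) and Sirt2 (0.037) with density and length offsets. Atrx ran from -0.029 (without WT 2) to 0.057 over fits without 1 library. The cause of these changes was not tested.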
